A study of Homo sapiens with 35 samples.

Results

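Chromosome 5 is one of the longer human chromosomes, and its contacts with the nuclear lamina are described here in single cells of the human leukaemia line KBM7. Its members were the 100-kb bins listed under chr5 that held a value in every cell, 1766 of 26584 such bins in the genome. Bins ending at or before 46400000 formed the short arm (464 bins), and bins starting after 47900000 formed the long arm (1302 bins). All positions are hg19, counted from 1. The other 44 of 1810 bins on the chromosome had no value, and 29 of these lay in the gap around the centromere (46400001 to 49400000). A single bin inside that gap (47900001 to 48000000) held values, belongs to the long arm by the rule, and was in contact in no cell.

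All samples were single cells of clone 5-5 of KBM7, given as 2N in the labels, and they formed 1 group without controls, a second condition or cells with unfused Dam. Every cell carried Dam fused to LaminB1, received 0.5 nM Shield1 for 15 h, and came from the 2% smallest cells that were positive for both Fucci cell-cycle reporters. Shield1 stabilises proteins that carry a destabilising domain, so that the fusion accumulates once it is added. The line is 1 clone, nothing in the labels says that the cells came from separate cultures, and p-values over cells therefore measure only the spread between these cells. No expression was measured, so the identity of the line was not checked against markers.

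The lamina is a mesh of filament proteins that lines the inner face of the nuclear envelope. In DamID a bacterial enzyme fused to a lamina protein adds methyl groups to GATC sites of DNA that comes near, and the methylated fragments are sequenced. Chromatin at the lamina falls into lamina-associated domains, large blocks with sharp edges that are mostly poor in genes and in transcription, while gene-rich chromatin tends to lie in the interior. In a single cell only some of these domains touch the lamina, so a contact frequency over cells carries information that a bulk profile averages away.

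The deposited value of a bin in a cell is a ratio of observed to expected reads (OE), and an OE of 1 or more was taken as a contact. A cell's contact share is the percentage of its bins with a contact, and a bin's contact frequency is the percentage of cells that had one there. Of 35 labelled samples, 32 had a column. Recovered reads ranged from 40279 to 258222 in 29 cells, of which chromosome 5 took 4016 to 24421. Cells 13, 15 and 17 stood apart with 985 to 1755 reads, and 1 read there gave a median OE of 13.7 to 24.9, so every read made a contact. These 3 cells were left out of all values below unless all 32 cells are named. A contact can come from either copy of the chromosome and from any time in the 15 h.

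Chromosome 5 touched the lamina over more of its length than the rest of the genome. Its contact share was 37.5% ± 6.51 (SD, n = 29), with a lowest cell at 22.4%, a median of 37.9% and a highest cell at 49.5%. The other chromosomes, X included and counted only over bins with a value in every cell, had a share of 27.9% ± 4.05 in the same cells. The groups of values overlapped, but chromosome 5 was the higher of the pair in 27 of 29 cells, by 9.53 percentage points on average (SD 5.97; two-sided sign-flip permutation test over cells, p = 1e-05, the smallest that 100000 resamples can give, and 1.5e-05 after Benjamini-Hochberg adjustment over 9 comparisons). The exceptions were cell 26, with a difference of -3.92 points, and cell 11, with -0.363. With all 32 cells the difference was 8.83 points, in 30 of 32.

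Chromosomes 4 and 6, the neighbours in size, served for comparison. Chromosome 5 was below chromosome 4, whose share was 45.1% ± 6.80 (SD, n = 29), by 7.62 points in 24 of 29 cells (sign-flip permutation test, adjusted p = 1.5e-05). It was not separated from chromosome 6, at 34.6% ± 6.57 (SD, n = 29). That difference was 2.83 points with an SD of 8.44 between cells, positive in 17 of 29 (sign-flip permutation test, adjusted p = 0.0918), and it passed only with a lower limit for a contact: 3.26 points at an OE of 0.5 (adjusted p = 0.0272) and 3.53 points with any read counted (adjusted p = 0.00796).

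For each bin, an exact Poisson-binomial test set the cells that had a contact against the number that their genome-wide shares would give, 8.29 of 29. On chromosome 5, 739 of 1766 bins (41.8%) were called above that expectation, each in at least 14 cells, against 31.3% of all bins of the genome. A further 771 (43.7%) were called below it, each in at most 3 cells, against 54.6% of all bins. Bins with a frequency of 80% or more, which means 24 or more cells, numbered 380 (21.5%, against 14.2% of all bins), and bins in contact in no cell numbered 571 (32.3%, against 42.2%). With all 32 cells 234 bins reached 80% and 564 were in contact in none. Frequencies from 20% to under 80% were held by 553 bins (31.3%). Only 5 bins, all on the long arm, were in contact in all 29 cells.

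**Figure D1:**
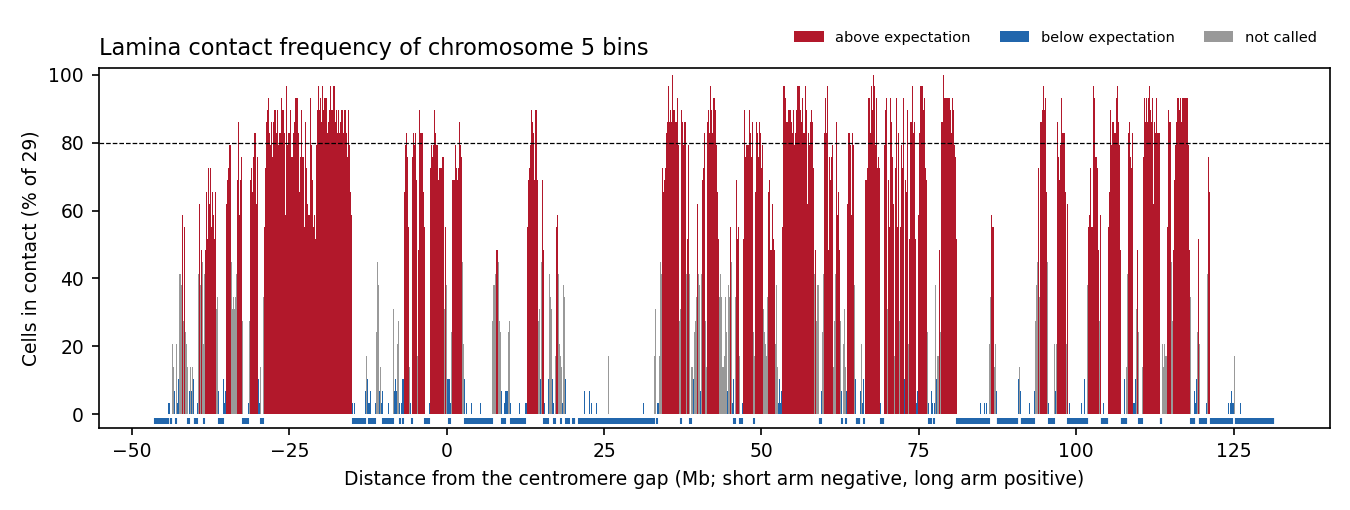
Each bar is 1 bin of chromosome 5, with the percentage of 29 cells in contact on the y axis and the distance in Mb from the centromere gap on the x axis; red bars were called above and blue bars below the expectation from the cells' shares, grey bars were not called, blue ticks under the axis mark bins in contact in no cell, and the dashed line marks 80%. The short arm holds a mostly red block within a stretch of 14.3 Mb in which every bin was in contact in at least 1 cell, broken by a few grey bars and ending in a blue one. The long arm has blocks near 80% and long blue stretches among many shorter ones. The bin inside the centromere gap is not drawn.

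The short arm was the more contacted arm. Its share was 45.3% ± 10.7 (SD, n = 29), from 18.1% in cell 11 through a median of 48.7% to 64.2% in cell 31. The long arm had 34.7% ± 6.39, from 22.0% through 34.4% to 46.7%. The short arm was higher in 24 of 29 cells, by 10.7 points on average (SD 9.62; sign-flip permutation test, adjusted p = 1.5e-05). The difference ran from -5.78 points in cell 11 to 32.1 points in cell 25, so the order of the arms differed between cells. Cells 7, 9, 11, 26 and 34 had the lower share on the short arm. With all 32 cells the short arm was higher by 9.89 points in 27.

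Both arms exceeded the other chromosomes. The short arm did so by 17.4 points (SD 9.98) in 27 of 29 cells and the long arm by 6.72 points (SD 6.09) in 24 of 29 (adjusted p = 1.5e-05 in each sign-flip permutation test). Among 34 arms of 17 chromosomes with at least 100 bins in each arm, the short arm of chromosome 5 had the second highest mean share and the fourth largest spread between cells (SD 9.98 points after the share of the other chromosomes was taken off, against a median of 6.24). The long arm ranked 11 for its share and 19 for its spread.

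**Figure D2:**
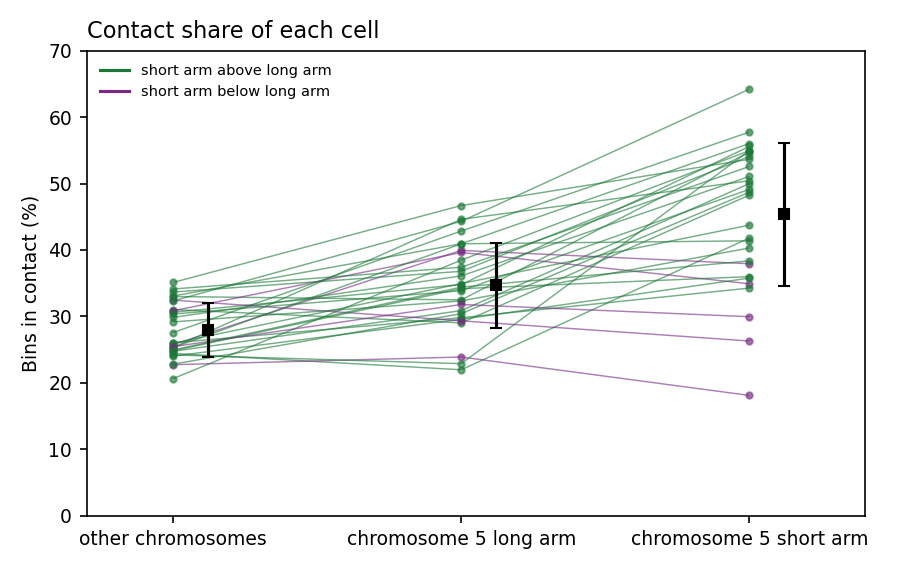
Each line joins the contact shares of 1 cell, in percent of bins, for the other chromosomes, the long arm and the short arm of chromosome 5; black squares with bars give the mean and SD over 29 cells. Green lines mark the 24 cells with the short arm above the long arm and purple lines the 5 cells with the opposite order.

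The most contacted region of the short arm was 1 long block. From 17200001 to 31500000 every one of 143 adjacent bins was in contact in at least 1 cell, which makes this the longest such stretch on the chromosome, at 14.3 Mb. The mean contact frequency in it was 80.6%, 97 of its bins reached 80%, and 7 were under 50%. Its mean OE was 2.67 ± 0.794 (SD, n = 29), from 1.12 in cell 11 through a median of 2.66 to 4.16 in cell 3. Every cell had a mean OE above 1 there. The share of the block in contact ran from 39.9% in cell 11 through 82.5% to 95.8%, and 19 cells had at least 80% of it in contact. The block was chosen by these values, which are therefore given as a description.

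Without this block the remaining 321 bins of the short arm had a share of 29.6% ± 10.4 (SD, n = 29), beside 27.9% for the other chromosomes, which it exceeded in 16 of 29 cells by 1.68 points on average. Against the long arm the remainder was lower by 5.04 points on average and higher in 12 cells. These differences had SDs of 10.0 and 9.74 points between cells and were not tested, since the block was removed after its values were seen. The long arm and the other chromosomes kept their own most contacted stretches, so a fall of the remainder towards or below them was built in. In fixed 10-Mb windows the same region stood out. The window from 20000001 to 30000000 had a share of 82.2% ± 14.2 (SD, n = 29), the highest of 242 windows of the genome with at least 90 bins, and 98 of its 100 bins were called above expectation and none below. Even there single cells differed, from 48.0% through 89.0% to 97.0%.

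The block was not uniform along its length. Contacts in it fell into 12.2 separate runs of bins per cell (SD 5.98). Inside it, away from its edges, the bins at 24300001 to 24400000 and 25100001 to 25200000 were in contact in only 6 and 7 of 29 cells. On their centromere side lay the longest stretch with every bin at 80% or more, 3.1 Mb from 25800001 to 28900000, with a mean frequency of 90.8% and an OE of 3.13 ± 1.02 (SD, n = 29; 1.25 in the lowest cell, 3.02 at the median and 5.36 in the highest). All 31 of its bins were in contact in 11 cells, and no cell had under 48.4% of them in contact. The longest uninterrupted run of contacts on chromosome 5 lay inside the 14.3-Mb block in 20 of 29 cells. That run measured 2.60 Mb in the lowest cell, 4.90 Mb at the median and 7.50 Mb in the highest, cell 3, where it ran from 17600001 to 25100000.

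The middle of the short arm is known as gene-poor and as the home of several type II cadherins, calcium-dependent adhesion proteins of the cell surface. In the RefSeq gene table of GRCh38.p14, the coding genes CDH18, CDH12, PRDM9, CDH10, CDH9, LOC124901178 and CDH6 follow each other on this arm. PRDM9 is the zinc-finger methyltransferase that places meiotic recombination, and the CDH genes are cadherins. The table is of another build than the bins, so these genes were not placed on them and have no values here.

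The rest of the short arm changed between contacted and free stretches. Its first 2.2 Mb (1 to 2200000) were in contact in no cell, with 43 reads over all 29 cells. Stretches of intermediate frequency followed, and 3 of the 5 longest stretches at 20 to under 80% on the chromosome lay here: 3800001 to 5100000 with a mean frequency of 39.3%, 7900001 to 10100000 with 55.2% and 11300001 to 13300000 with 57.2%. In the second of these, 6 cells had at least 80% of the bins in contact and 6 cells under 20%, with a mean OE from 0.0972 to 3.03. The window from 30000001 to 40000000, which still holds the end of the block up to 31500000, had a share of 19.1% ± 7.40 (SD, n = 29), the lowest full window of this arm. In it 69 of 100 bins were called below expectation and 17 above.

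On the long arm, 264 of 1302 bins (20.3%) reached 80%, 377 (29.0%) had 20 to under 80%, and 471 (36.2%) had no contact in any cell. Over all bins of the genome these shares were 14.2%, 27.5% and 42.2%. Most stretches on the chromosome were short. Of 91 at 80% or more, 68 measured up to 0.3 Mb, and of 104 in contact in no cell, 59 did. In the middle of the long arm, 4 successive 10-Mb windows from 90000001 to 130000000 had shares of 54.8% ± 17.2, 61.5% ± 15.3, 51.6% ± 13.6 and 60.7% ± 10.3 (SD, n = 29). The window from 160000001 to 170000000 lay within their range, with 55.1% ± 12.2. Of the 8 longest stretches with every bin at 80% or more, 7 were on the long arm. They measured 1.4 to 2.0 Mb, with mean frequencies of 88.4 to 91.8% and mean OE values of 3.00 to 3.58.

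The stretch from 128000001 to 130000000 was the more sharply bounded of the 2.0-Mb pair, with flanks (1 Mb on each side) in contact in 32.8% of the cells, against 91.6% inside. Its OE was 3.23 ± 1.11 (SD, n = 29), from 0.970 through 3.20 to 5.72, and all of its bins were in contact in 17 cells. The other 2.0-Mb stretch, from 84200001 to 86200000, had an OE of 3.09 ± 1.49 and flanks at 58.1%. The stretch at 165200001 to 167100000 had the highest mean frequency of the 8, at 91.8%, with an OE of 3.57 ± 1.45. The neighbours 102900001 to 104600000 and 104800001 to 106300000, were separated by 2 bins and both had a frequency of 89.7%. Cell 35 had the lowest share in both, 23.5% and 33.3%.

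A single cell rarely lacked one of these stretches. Over the 8 stretches and 29 cells, which give 232 pairs, at least 80% of the bins were in contact in 191 (82.3%) and all of the bins in 121. A share under 20% occurred in 1 pair. This was the stretch from 90800001 to 92200000, which had no contact in cell 6 (OE 0.160), while the median cell had an OE of 3.20 and the highest 6.67. The high frequencies follow from how the stretches were chosen, and the pairs are a description.

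Of the 8 longest stretches in contact in no cell, 7 lay on the long arm. The first was 4.7 Mb, from 75200001 to 79900000, where 195 reads were recovered over 29 cells and the OE was 0.0227 ± 0.0204 (SD, n = 29), at most 0.0669. The window that holds it, 70000001 to 80000000, had a share of 0.690% ± 1.06, no contact at all in 18 of 29 cells, and 94 of 95 bins called below expectation. Between 68900001 and 70600000, around the start of this window, 13 bins had no value. Other free stretches were 136900001 to 140100000 (3.2 Mb), 131300001 to 134200000 and 170700001 to 173600000 (2.9 Mb each), and 178500001 to 180800000 (2.3 Mb) at the end of the chromosome. Their mean OE was 0.0174 to 0.0384. The remaining pair, 54800001 to 56600000 and 148400001 to 150200000, measured 1.8 Mb each.

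Some contacted and free parts met within few bins. At each of the 6 sharpest borders, all on the long arm, the mean contact frequency changed by 72.4 to 78.6 points between the 5 bins on the free side and the 5 on the contacted side. The sharpest was at 125700000, where the last 5 contacted bins had a frequency of 84.8% and an OE of 2.72 ± 1.39 (SD, n = 29), and the next 5 bins 6.21% and 0.256 ± 0.242. At 160000001, where contacts begin, the step was from 2.76% to 80.0%. The others lay at 118800001, 130400000, 156400000 and 96500001. The contacted side had the higher OE in 29 of 29 cells at all 6, which the choice of borders by the same values favours. No border of the 14.3-Mb block was among the 6. At the edge of the block farther from the centromere the change was gradual. Frequencies of successive bins there were 0, 34.5%, 31.0%, 55.2%, 41.4%, 72.4% and 86.2%.

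**Figure D3:**
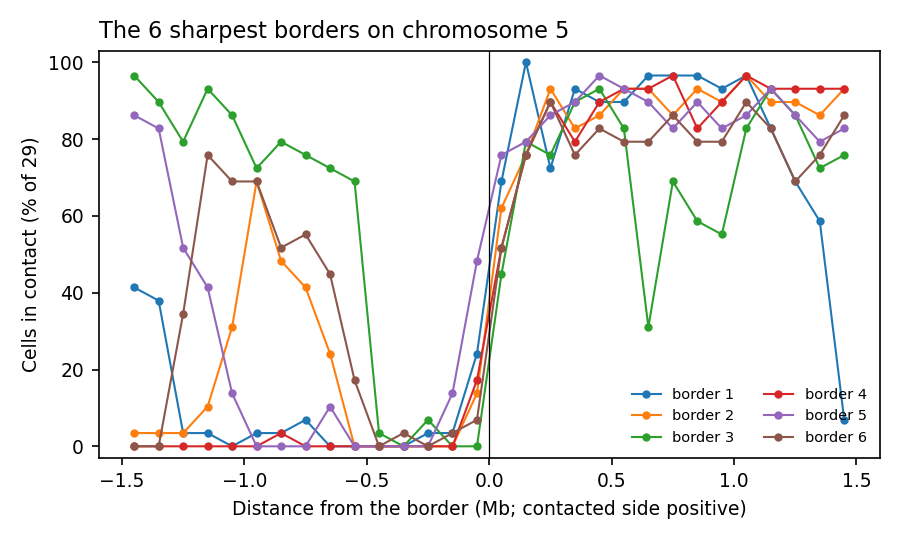
Contact frequency in percent of 29 cells is drawn for the 100-kb bins around the 6 sharpest borders of chromosome 5, against the distance from the border in Mb with the contacted side positive. Within 0.25 Mb outside the border the bins lie at 0 to 48.3% and within 0.25 Mb inside at 44.8 to 100%; further out, bins above 40% return outside every border but border 4, nearest at border 3.

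The ends of the chromosome were mostly free. In the outer 5 Mb at both ends together (99 bins) the contact share was 6.34% ± 5.25 (SD, n = 29), against 39.1% ± 6.64 in the bins far from the ends and the centromere. The difference was -32.8 points, with the ends lower in 29 of 29 cells (sign-flip permutation test, adjusted p = 1.5e-05). By end, the start of the short arm had 12.4% ± 10.4, from 0 to 36.0%, and the end of the long arm 0.141% ± 0.526, from 0 to 2.04%.

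The centromere flanks did not pass the test at the distance set for it. The 101 bins within 5 Mb of the gap had a share of 42.7% ± 12.1 (SD, n = 29). They were compared with the bins far from the ends and the centromere (39.1%), so the outer 5 Mb were in neither group. The difference of 3.64 points was positive in 18 of 29 cells and short of the threshold (sign-flip permutation test, adjusted p = 0.0505). The value depended on the distance, which also set the width of the ends left out. Within 2 Mb the flanks were higher than the remaining bins (37.9%) by 18.6 points, in 27 of 29 cells. Within 10 Mb they were lower than the remaining bins (42.2%), at -11.3 points, and higher in 1 of 29 (sign-flip permutation test, adjusted p = 1.29e-05 for both). By side, the share was 57.1% ± 17.8 on the short arm and 28.7% ± 13.5 on the long arm, which was not tested.

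The lengths of contact runs on chromosome 5 and elsewhere were not separated by the test. The mean run of adjacent contacted bins was 540 kb ± 132 (SD, n = 29) on chromosome 5 and 505 kb ± 112 elsewhere, a difference of 34.6 kb with an SD of 109 kb, positive in 16 of 29 cells (sign-flip permutation test, adjusted p = 0.0989). It was 80.0 kb with an OE limit of 0.5 (adjusted p = 0.000411), 141 kb with any read counted (1.29e-05) and 100.4 kb with runs joined across 1 bin (0.0156). Without bins of low expected reads it turned to -8.85 kb (adjusted p = 0.604). A cell had 98 to 192 runs on the chromosome, with a median of 121.

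Cells differed in which parts of the chromosome were in contact. Cell 25 had 55.0% of its short arm and 22.9% of its long arm in contact, and cell 11 had 18.1% and 23.9%. In cell 9 the shares were 34.9% and 39.6%. Over 29 cells the shares of the arms correlated with r = 0.463 (Spearman's rho 0.473), and with r = 0.364 (rho 0.280) after the share of the other chromosomes was taken off each. The arms of a cell share its library and depth, and leaving out the 2 cells at the greatest distance from the median gave 0.194 for the second r. Over 17 chromosomes this second correlation had a median of 0.314, and chromosome 5 ranked 8. Taking the same share off both arms can by itself make them correlate, to a degree that differs between chromosomes. That part was not separated, so the median and the rank do not measure joint contact of the arms alone. These correlations are descriptions.

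**Figure D4:**
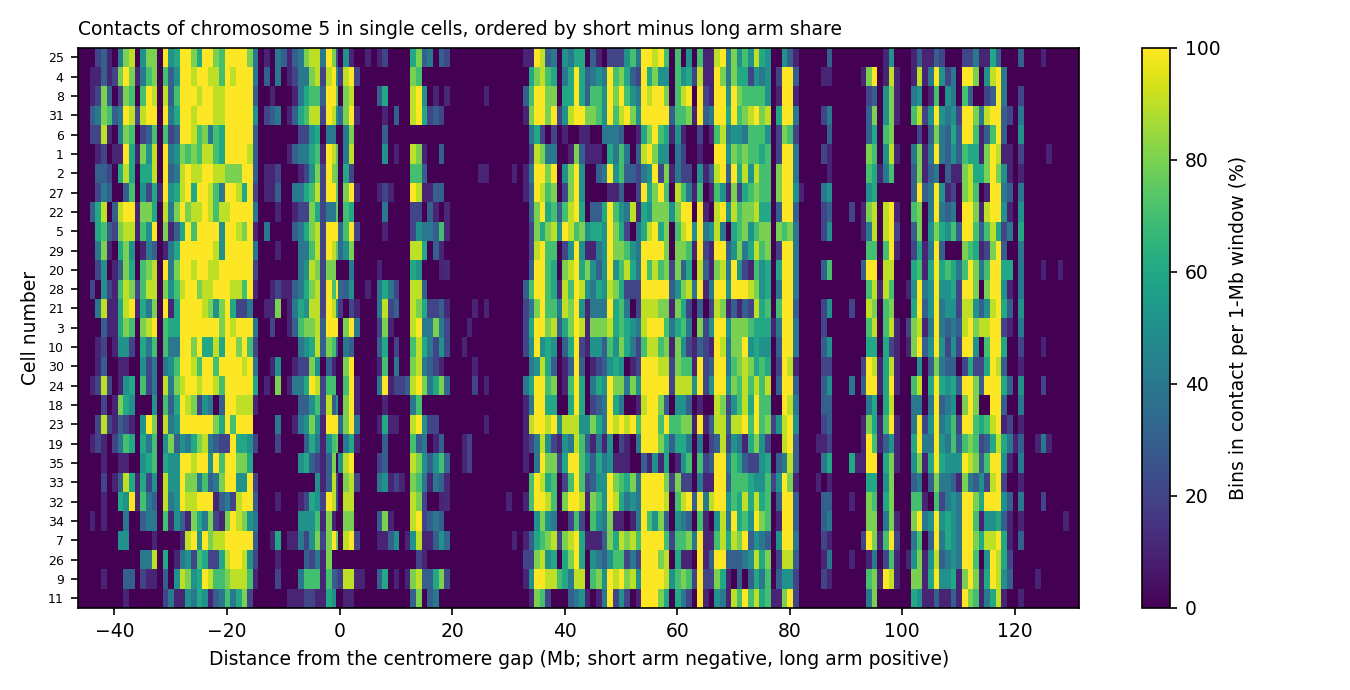
Each row is 1 of 29 cells, ordered from the largest to the smallest difference between short and long arm share, and each column a 1-Mb window placed by its distance in Mb from the centromere gap; the colour gives the percentage of bins in contact. The short-arm block holds at least 80% of its bins in contact in 19 rows, and cell 11, at the bottom, has the lowest share of it, 39.9%.

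Neighbouring regions tended to be in contact in the same cells. In 16 windows of 10 Mb with a mean share of at least 5%, the share of the other chromosomes was taken off each. The median correlation over cells was then 0.503 for 14 adjacent pairs and 0.251 for 106 others. The term taken off is the same for every window, which by itself can make any pair correlate, and that part was not separated. The highest was between the windows that start at 80000001 and 90000001 (r = 0.827), and the lowest between those that start at 100000001 and 130000001 (r = -0.191). At the level of bins with 20 to under 80% contact frequency, the mean correlation was 0.361 up to 1 Mb, 0.205 at 1 to 5 Mb, 0.130 at 5 to 20 Mb, 0.0842 at 20 to 50 Mb and 0.0676 beyond. On the other chromosomes these values were 0.391, 0.222, 0.138, 0.0995 and 0.0686. Bins 20 to 50 Mb apart had a mean correlation of 0.141 within the short arm and 0.0767 within the long arm. Bins of different arms, taken over all distances and so not matched to these values, had 0.0655. All pairs share the cells' depth, and no test was made.

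**Figure D5:**
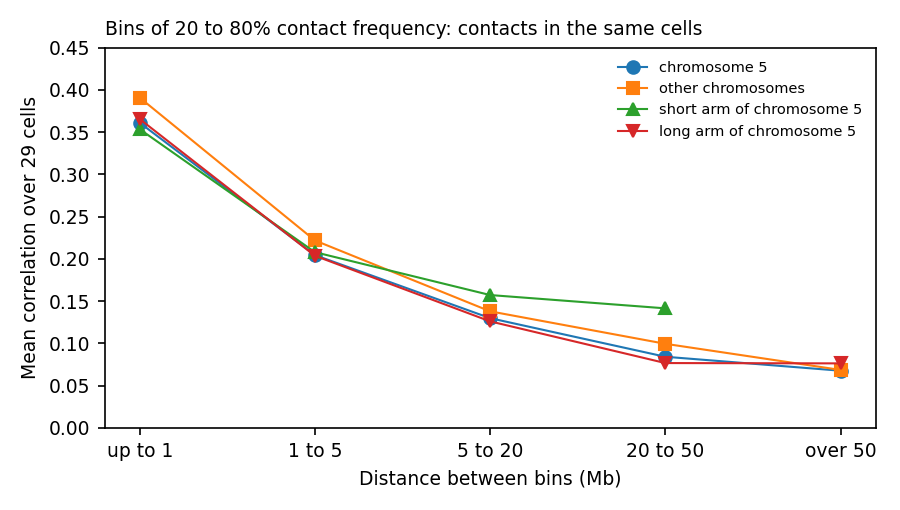
The mean correlation of contacts over 29 cells is plotted against the distance between bins of 20 to 80% contact frequency, for chromosome 5, its arms and the other chromosomes. All lines fall with distance, from 0.354 to 0.391 up to 1 Mb to 0.0676 to 0.0763 beyond 50 Mb, and the short arm is highest at 5 to 50 Mb; it has no pairs beyond 50 Mb.

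Some contacts occurred in few cells. On chromosome 5, 200 bins (11.3%) were in contact in only 1 to 3 cells, against 12.5% of the bins elsewhere. A cell held 0 to 28 of these contacts, with a median of 10; cell 5 held the most and cell 18 held none.

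Depth, background reads and expected reads were set beside these results. The share of chromosome 5 rose with log10 reads over the 29 cells (r = 0.448, rho 0.515; 0.527 with the 2 most extreme depths left out), while its difference from the other chromosomes had r = -0.0886 (rho 0.0128). After every cell was thinned to 40279 reads the difference was 9.08 points, in 27 of 29 cells, and that between the arms 9.10 points, in 23 of 29. In bins that were in contact in no cell, the mean OE on the short arm was 1.39 ± 0.648 times that on other chromosomes, and on the long arm 1.21 ± 0.480 times (SD, n = 29). Over cells the ratio for the whole chromosome correlated with its excess in contact share over the other chromosomes (r = 0.507, rho 0.539; 0.619 with the 2 most extreme cells left out). The ratio for the short arm correlated with the excess of that arm (r = 0.628, rho 0.510; 0.498 with the 2 most extreme cells left out). The part of these background reads in the results was not tested. Expected reads, summed over the 29 cells, had a median of 167 in bins at 80% or more. It was 174 at 20 to under 80%, 183 above 0 and under 20%, and 174 in bins in contact in no cell. The last median covers the 536 of 571 bins with a recoverable value. The other 35 had no read in the 29 cells, so whether they could show a contact is not known. Among bins of the genome with a recoverable value, the 2538 with the fewest expected reads were then left out, 105 of them on chromosome 5. The difference between the arms was 10.4 points and passed the test. The 1204 bins of the genome without a read in the 29 cells stayed in, 35 of them on chromosome 5.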

How the data were processed

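DamID values of single KBM7 cells came from 1 table. The authors deposited, per the file headers, a ratio of observed to expected reads for each 100-kb bin and cell. Per the submitters' processing notes, reads were handled with cutadapt and Bowtie2 2.1.0 on hg19. How the expectation was made is not given in the sources used here, nor is any filter. Columns were matched to samples by the number in the title, and samples 12, 14 and 16 were not analysed here.

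Values of a bin are whole multiples of the value of 1 read, so reads were recovered as the largest common step (99.9989% of values whole within 0.01 reads, which the method favours). Reads after PCR are not independent molecules. Cells under 10000 recovered reads were left out. Bin counts were tested over all 26584 bins with Benjamini-Hochberg adjustment at 0.05. Within-cell differences were tested by sign flips. Named were the 8 longest stretches at 80% or more and in no cell, the 6 sharpest borders at least 1 Mb apart, and fixed 10-Mb windows. Any other region was picked with its values in view. The members, tests and regions were chosen with earlier results of these data known. Scripts used Python 3.11.15, numpy 2.4.6 and scipy 1.17.1, and were checked on simulated data. No genome of the bins' build was used, so no gene was placed and no sequence is shown. Alternatives were other OE limits, all 32 cells, 24 cells, thinning, bins of low expected reads, autosomes only, joined runs and other distances.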

Additional observations from a re-analysis of the deposited data

How the results depend on the processing

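Of 100 recomputed values, 82 stayed on the same side of the test with the same sign or, for counts, within 1.5 times, 10 newly passed, 6 moved further and 2 reversed. Chromosome 5 stayed above the other chromosomes (6.58 to 11.7 points) and the short arm above the long arm (6.32 to 12.3 points) under every alternative run. The ends likewise stayed below the bins far from the ends and the centromere (-38.4 to -24.2 points). The differences from chromosome 6, at the centromere and in run length were sensitive to the processing. From chromosome 6 it was 3.26 points with an OE limit of 0.5 and 3.53 with any read counted. At the centromere it was 3.90 points with a limit of 0.5, 2.95 with any read counted, 3.48 in all 32 cells, 5.88 without bins of low expected reads, 18.6 within 2 Mb and -11.3 within 10 Mb. In mean run length it was 80.0, 141 and 100.4 kb with a limit of 0.5, with any read counted and with joined runs, and -8.85 kb without bins of low expected reads; the causes were not tested. Bins at 80% or more numbered 585, 49 and 767 with limits of 0.5, 2 and any read, and 234 in all 32 cells. Bins in contact in no cell numbered 359 with 0.5 and 35 with any read. After thinning to equal reads both counts fell, from 380 to 254 and from 571 to 451, which the limit of 1.5 times still counts as the same. The sign-flip tests compare regions within the same cell, while the test per bin sets cells in contact against their genome-wide shares. With 1 group there is no pairing of samples between groups. The value of 1 read, a median OE of 0.0940 to 0.605 over the cells used, limits how finely a contact is resolved in the sparser cells.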
